A study of Homo sapiens with 34 samples.

Results

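The collagen genes were examined across the differentiation of human pluripotent stem cells through the primitive streak (PS) to endoderm and mesoderm. A gene was taken as a member when its symbol was COL, a number, A and a number, which gave 44 symbols carried by 49 of the 37951 identifiers in the RNA sequencing tables. COL11A2 alone had 6 identifiers, of which 5 are near-identical copies without a place in the annotation used, so its reads can be split between them and its values are uncertain. The cells were wild-type ESI017, an established human embryonic stem cell line kept on Matrigel, and 34 libraries covered 17 conditions with 2 replicates each. On day 1 the DE(a) treatment held 100 ng/ml activin with 2 µM CHIR, which activates Wnt signalling, and APS (anterior PS) held 4 µM CHIR, 20 ng/ml bFGF and activin at 30 ng/ml. MPS (mid PS) held 6 µM CHIR, 40 ng/ml BMP4, 20 ng/ml bFGF and 30 ng/ml activin, and PPS (posterior PS) held the same without activin. Each population was collected at 24 h, or at 48 h after a second day in 1 of 3 media. DE(b) (definitive endoderm) medium held 100 ng/ml activin and 250 nM of the BMP inhibitor LDN. PM (paraxial mesoderm) medium combined the activin receptor inhibitor A-8301 (1 µM) with 250 nM LDN and bFGF at 20 ng/ml. This recipe lists no CHIR, but 1 legend of the study lists it in PM medium. The study's text also describes Wnt activation on day 2 of PM differentiation. Whether the PM libraries here had CHIR on that day is therefore not settled. LM (lateral mesoderm) medium held 30 ng/ml BMP4, 1 µM A-8301 and 4 µM of the Wnt secretion inhibitor IWP2. The control was undifferentiated cells in mTeSR PLUS, labelled 48 h. The study's methods place the day 1 treatments in Essential 6 medium. Base medium, and for the 24 h conditions also time, thus differ from the control and cannot be told apart from differentiation. All groups came from 1 cell line, and a 48 h condition is named by its day 1 population and its day 2 medium, such as MPS-LM.

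Collagens are secreted proteins of 3 chains wound into a triple helix. Fibrillar chains build the tensile fibres of connective tissue, type IV chains build the sheet-like network of basement membranes, and type VI chains form beaded filaments beside the cell. Other families attach to fibrils (FACIT collagens), span the cell membrane, or carry long interrupted helices (multiplexins). Gastrulating cells leave an epithelium resting on a basement membrane and join a mesenchyme that lies in its own matrix, so chains of all these families are background biology of the streak. An RNA level is reported here, not a protein, and in a bulk library fewer cells with a transcript and less transcript per cell cannot be told apart.

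Library totals ranged from 15522780 to 23439799 estimated counts. Levels are CPM (a gene's share of the library total, scaled to 1000000 counts). Levels of different genes are compared after division by the exon length in kilobases, unless a share or rank of CPM itself is named. The test was edgeR's quasi-likelihood F test over 17895 genes, a gene was called at a Benjamini-Hochberg adjusted p under 0.05, and every adjusted p below is of this kind unless another tool is named. Log2 fold changes are differences of log2 levels averaged over conditions, and they are given with their standard error (SE). Marker lists were checked against the labels, and single endoderm markers went against them. The summed level of 4 pluripotency genes was 2919 to 3141 CPM in the control and at most 895 CPM in the day 2 libraries. The 3 PS genes TBXT, MIXL1 and EOMES summed to 1574 to 2955 CPM at 24 h against at most 1.86 CPM in the control. The 4 definitive endoderm genes summed to 3453 to 6432 CPM after DE(b) medium, most of it CER1, with condition means of 3593 to 5674 CPM. Another of them, FOXA2, had means of 105, 66.0, 27.5 and 6.59 CPM in DE(b) medium after DE(a), APS, MPS and PPS. CXCR4 had means of 161, 115, 24.1 and 13.4 CPM in the same order, and it was higher after PM medium, at 199.9 to 293 CPM. The mesoderm genes TBX6 and HAND1 reached means of 51.1 and 84.7 CPM in PPS-DE(b). The 4 paraxial mesoderm genes summed to 352 to 522 CPM after PM medium (with MESP2 at or under 3 counts in MPS-PM and PPS-PM), and the 4 lateral mesoderm genes to 431 to 2373 CPM after LM medium. The 4 amnion genes GATA3, TFAP2A, ISL1 and VTCN1 summed in the LM libraries to 77.9 to 407 CPM, with 3 of 4 genes at 10 CPM or more in every LM condition. The study also uses ISL1 as a marker of lateral mesoderm, so this list is not specific to amnion. The 4 endothelial and blood genes did not exceed 32.7 CPM in any library, and TAL1 was at or under 3 counts in every condition. Of the 3 notochord genes NOTO, SHH and CHRD, the sum did not exceed 31.6 CPM, with NOTO at or under 3 counts in every condition but the control.

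Collagen transcripts were more abundant in the differentiated conditions than in the control, which also differed in base medium. Summed over the 44 symbols, they made up 1755 and 1433 CPM in the control libraries and 2850 to 5024 CPM in the 8 libraries of 24 h. After the second day the sums ran from 4147 CPM in a DE(a)-PM library to 8756 CPM in an MPS-DE(b) library, and no library of a differentiated condition overlapped with the control. The mean was highest in MPS-DE(b) (8290 ± 658 CPM, SD, n = 2), MPS-LM (8233 ± 643) and PPS-LM (8100 ± 512), which did not differ beyond their spread. The gene with the largest share of the summed CPM, without division by length, changed with the condition. It was COL18A1 in the control (21.6% of the sum) and COL6A1 in all 4 conditions of 24 h (24.4% to 37.5%). In MPS-DE(b) it was COL5A2 (26.8%), in APS-PM COL1A2 (33.0%) and in PPS-LM COL4A1 (20.5%). Longer genes collect more reads, so the gene with the largest share need not lead per kb. Divided by length, the highest condition mean of any collagen gene was that of COL5A2, at 303 CPM per kb in MPS-DE(b), followed by COL6A1 with 283 CPM per kb in PPS-24h, COL1A2 with 160 in APS-PM and COL1A1 with 135 in MPS-LM. With the length of the longest transcript in place of all exons, COL6A1 ranked 1 and COL5A2 ranked 2. By that length COL1A2 stayed at rank 3, COL4A1 and COL4A2 were at ranks 4 and 5, and COL1A1 was at rank 6.

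**Figure D1:**
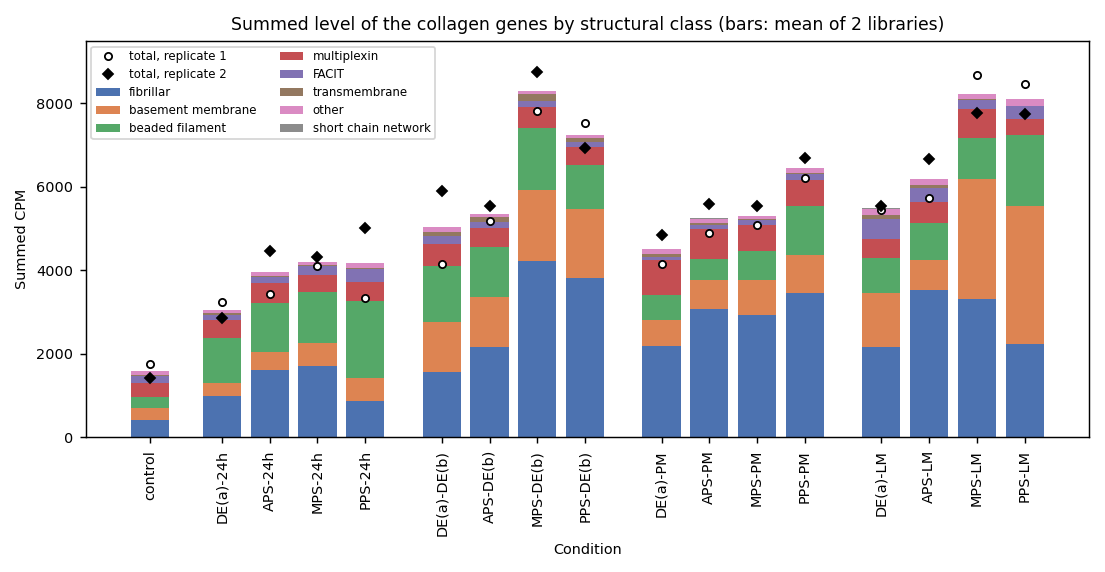
Summed CPM of the collagen genes (vertical axis) in the 17 conditions (horizontal axis), stacked by structural class as means of 2 libraries, with the total of each replicate as a circle or diamond. The control totals of 1755 and 1433 CPM lie below all others, and the totals of MPS-DE(b), MPS-LM and PPS-LM lie between 7738 and 8756 CPM.

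Of the 44 symbols, 31 reached a mean of 10 CPM in at least 1 condition, 10 reached 1 to 10 CPM and 3 (COL10A1, COL20A1 and COL28A1) stayed under 1 CPM. All 44 passed the filter on low counts through at least 1 identifier. Averaged over the 4 populations of 24 h, 18 collagen genes were called higher than in the control and 8 lower, where 16.9% of all genes were called higher and 15.6% lower. After DE(b) medium 21 were called higher and 10 lower, beside 22.4% and 22.9% of all genes. After PM medium the counts were 22 and 9, beside 22.3% and 22.7%, and after LM medium they were 23 and 8, beside 24.3% and 24.6%. The share of collagen genes called higher, from 40.9% at 24 h to 52.3% after LM medium, was thus above that of all genes in each comparison, whereas the share called lower, from 18.2% to 22.7%, was near the background. The median log2 fold change over the 44 genes was 0.60 at 24 h, 0.84 after DE(b), 0.98 after PM and 0.88 after LM medium, where the medians of all genes lay between -0.01 and 0.02. Setting the members with a group at or under 3 counts to their bounds changed only the LM median, to 0.82. These 4 comparisons share the same 2 control libraries, and leaving out control replicate 2 reduced the 24 h count from 26 to 15 genes.

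**Figure D2:**
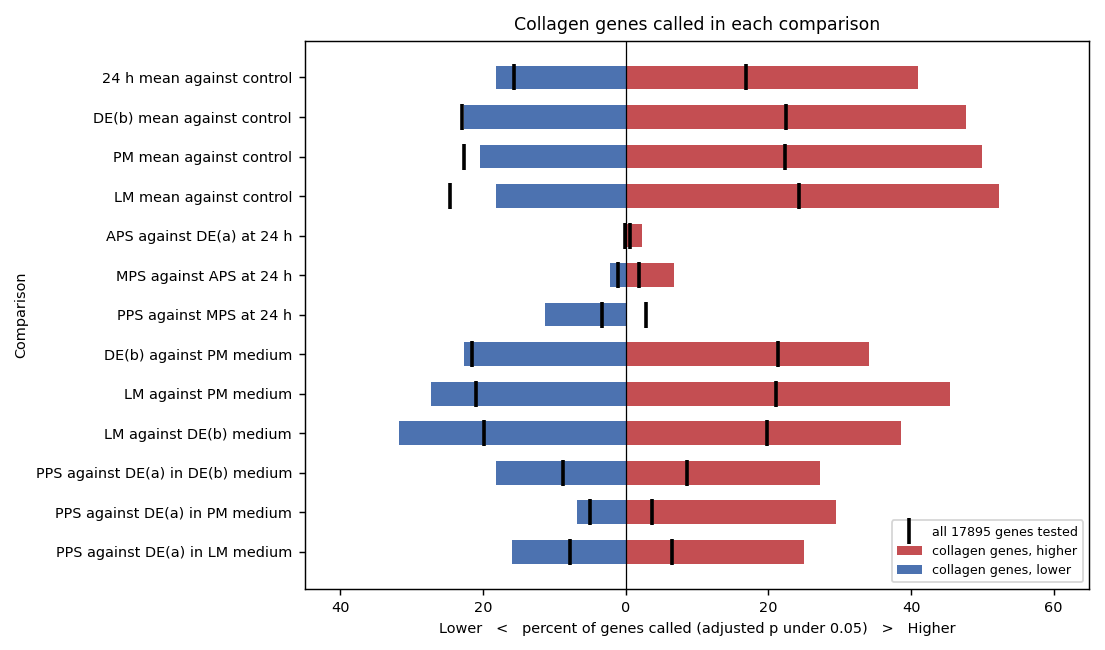
Percent of the 44 collagen genes called higher (right) or lower (left) in each pairwise comparison (rows), with black ticks at the percent of all 17895 genes tested. In the 4 comparisons with the control the bars on the right reach 40.9% to 52.3%, while the ticks lie between 16.9% and 24.3%.

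In all 4 comparisons with the control, 14 genes were called higher: COL1A2, COL2A1, COL5A1, COL5A2, COL11A1 and COL27A1 of the fibrillar class, COL4A1, COL4A2 and COL4A5 of basement membranes, COL6A1, COL6A2 and COL6A6 of beaded filaments, the FACIT gene COL9A2 and the transmembrane gene COL13A1. The genes COL4A3, COL4A4, COL9A1, COL14A1 and COL21A1 were called lower in all 4. The share of all genes called in 1 direction in all 4 was not computed. Because the 4 comparisons share the control libraries, these 2 counts are not read as particular to collagen genes. Each call is on a mean over the 4 day 1 populations, and single conditions went the other way. COL4A4 and COL4A3 were highest of all conditions in DE(a)-DE(b), at means of 8.42 and 1.98 CPM against 2.96 and 0.610 CPM in the control. COL21A1 was highest in PPS-PM, at 6.19 against 4.06 CPM in the control. COL16A1, COL23A1 and COL25A1 were called in both directions depending on the medium, and 7 genes, among them COL15A1, COL11A2 and COL8A1, were called in none. With each library left out in turn, COL1A2, COL5A1, COL5A2, COL6A1, COL6A2, COL9A2 and COL13A1 stayed higher in all 4, and COL9A1 and COL14A1 stayed lower. Some genes called higher in all 4 were still below the control in single conditions. COL13A1 was lowest in PPS-LM, at a mean of 1.46 CPM against 2.92 CPM in the control. COL2A1 was lowest in MPS-LM (9.78 against 20.8 CPM) and COL11A1 in DE(a)-24h (18.3 against 19.7 CPM). The 24 h calls of COL2A1, COL4A1, COL4A2 and COL27A1 were lost without control replicate 2 (adjusted p up to 0.15, 0.16, 0.24 and 0.063), that of COL11A1 without control replicate 1 (0.058) and that of COL4A5 without either (0.067). After LM medium COL2A1 was lost without control replicate 2 (0.22) and COL27A1 without either control (0.15), and after PM medium COL27A1 was lost without control replicate 2 (0.071) and COL6A6 without that library, DE(a)-PM replicate 1 or APS-PM replicate 2 (0.22). Among the genes lower in all 4, the calls of COL4A3 at 24 h, of COL4A3 and COL4A4 after DE(b) medium and of COL4A4 and COL21A1 after PM medium were also lost without at least 1 library, control replicate 2 being one for COL4A3 at 24 h and for COL4A4 after PM medium. Of the 11 fibrillar genes, 8, 8, 9 and 8 were called higher at 24 h and after DE(b), PM and LM medium, and 0 lower in each.

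**Figure D3:**
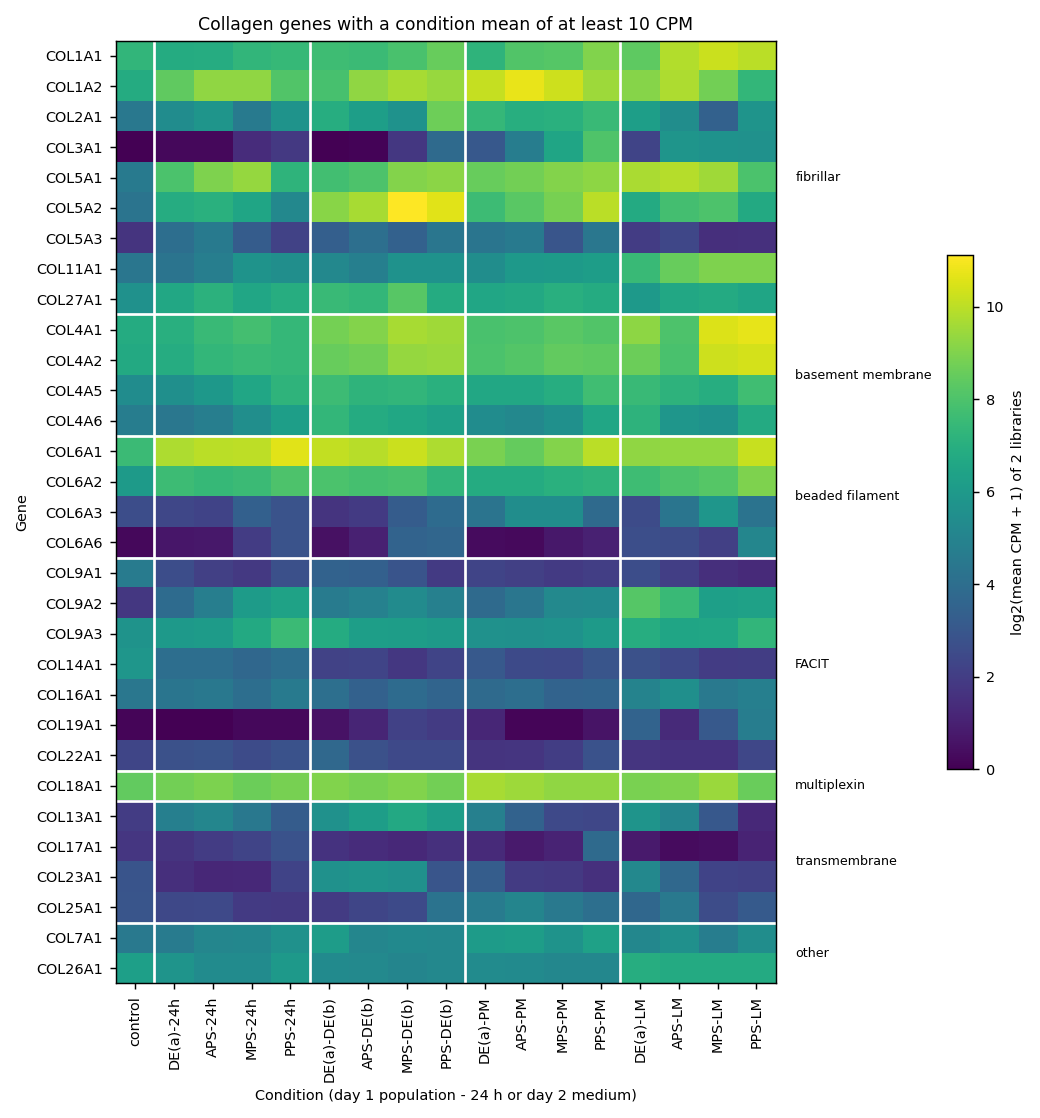
Level of the 31 collagen genes with a condition mean of at least 10 CPM (rows, grouped by class) in the 17 conditions (columns), as log2 of the mean CPM of 2 libraries plus 1. COL3A1 is near 0 in the control and at 24 h and reaches 265 CPM in PPS-PM, COL14A1 is highest in the control at 55.7 CPM, and COL11A1 and COL26A1 are highest in the LM columns.

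Type I collagen, the main protein of bone, skin and tendon, is a trimer of COL1A1 and COL1A2 chains, and the 2 genes followed different courses. COL1A1 (ENSG00000108821, chr17:50184101-50201632, GRCh38) was at 180 and 135 CPM in the control and stayed at 82.4 to 188 CPM at 24 h. It reached 262 and 396 CPM in DE(a)-LM, 871 and 977 in APS-LM, 1502 and 928 in MPS-LM and 1259 and 752 in PPS-LM. Every LM library was above every control and 24 h library. In DE(b) medium COL1A1 was at 172 to 479 CPM and in PM medium at 116 to 522 CPM, and both ranges overlapped with the DE(a)-LM libraries. COL1A2 (ENSG00000164692, chr7:94394895-94431227) was at 126 and 102 CPM in the control and already at 237 to 645 CPM at 24 h. Its level peaked in PM medium instead, at 927 and 1332 CPM in DE(a)-PM, 1638 and 1821 in APS-PM, 1112 and 1365 in MPS-PM and 666 and 749 in PPS-PM. In DE(b) medium COL1A2 was at 176 to 903 CPM and in LM medium at 131 to 896 CPM, so that PPS-PM lay within both ranges. In PPS-LM, where COL1A1 was near its highest, COL1A2 was at 193 and 131 CPM.

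Between the LM and PM media, averaged over the 4 populations, COL1A1 rose by 1.54 ± 0.16 on the log2 scale (SE, adjusted p = 7.4e-08, n = 8 libraries a side), and COL1A2 fell by 1.38 ± 0.13 (adjusted p = 9.0e-09). Within LM medium, PPS against DE(a) gave the same opposition. COL1A1 was higher by 1.69 ± 0.33 (adjusted p = 0.00085) and COL1A2 lower, at a log2 fold change of -1.67 ± 0.26 (adjusted p = 8.2e-05). The 2 changes were called in opposite directions, also with each of the 4 libraries left out. Within PM medium COL1A1 also rose from DE(a) to PPS, by 1.77 ± 0.33 (adjusted p = 0.0013), a call that was lost when DE(a)-PM replicate 1 was left out (adjusted p = 0.052) and in a fit of only the compared libraries (adjusted p = 0.054).

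The ratio of COL1A1 to COL1A2 per kb of exon makes the opposition visible within a library. It was 1.71 and 1.59 in the control, 0.195 to 0.894 at 24 h, 0.151 and 0.167 in DE(a)-PM, 3.55 and 3.29 in MPS-LM and 7.84 and 6.89 in PPS-LM. Over the 17 condition means of log2(CPM + 1), the Pearson correlation of the 2 genes was 0.0073. The type IV pair COL4A1 and COL4A2, by contrast, kept a ratio per kb of 1.1 to 1.98 in all conditions, with a correlation of 0.98. COL4A5 and COL4A6 had ratios of 0.949 to 2.21 and a correlation of 0.91, and COL6A1 and COL6A2 had ratios of 2.11 to 6.64 and a correlation of 0.74. The level of a ratio depends on the length used, all exons here or the longest transcript, but its fold change between conditions does not. Which chain of a pair was in excess is therefore not read from these ratios. The 17 points of each correlation share libraries and total counts, and the pairs are described without a test.

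**Figure D4:**
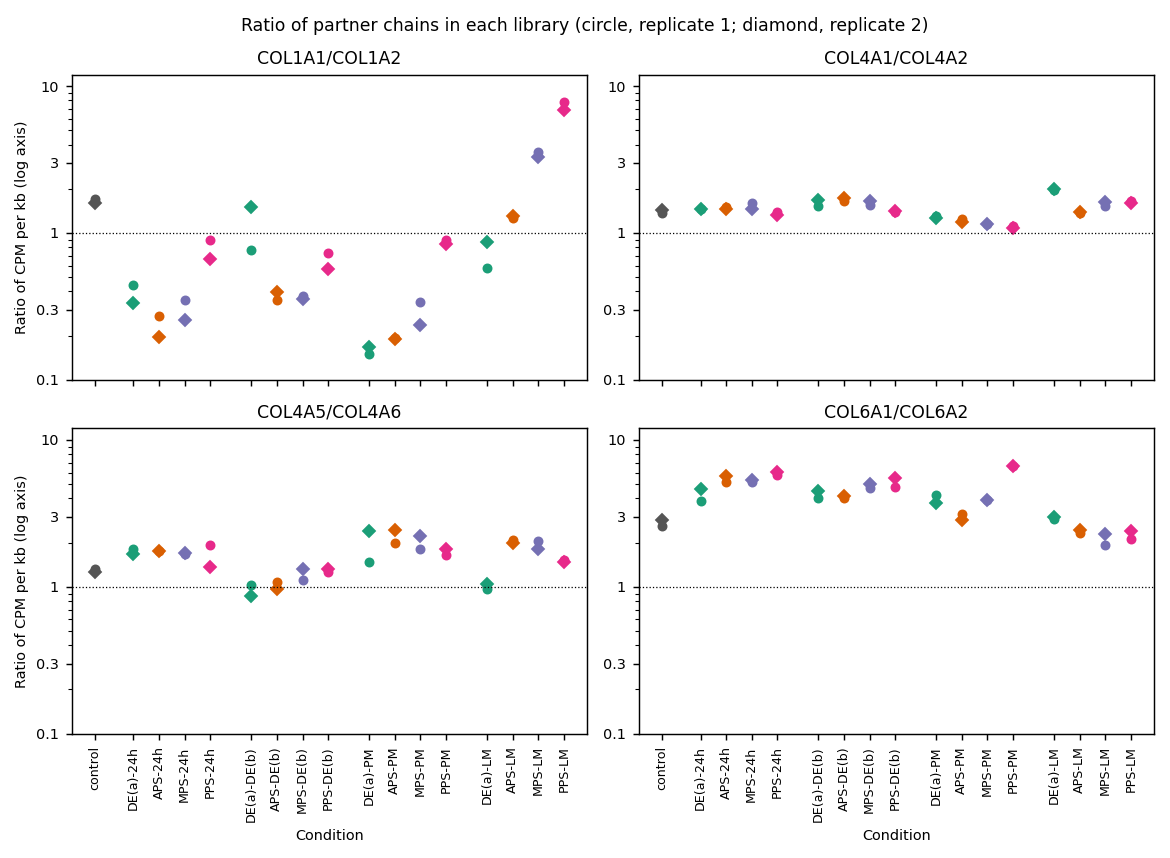
Ratio of the CPM per kb of partner chains (vertical log axis) in each of the 34 libraries, by condition (horizontal axis), with replicate 1 as a circle, replicate 2 as a diamond and the day 1 population as colour. The COL1A1/COL1A2 ratio runs from 0.151 in DE(a)-PM to 7.84 in PPS-LM, while COL4A1/COL4A2 stays close to a flat line.

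The chains of type V collagen, which sit inside type I fibrils and set their diameter, came up early. COL5A1 (ENSG00000130635, chr9:134641803-134844843) was at 26.7 and 19.6 CPM in the control. At 24 h it was at 260 and 235 CPM in DE(a), 462 and 541 in APS, 753 and 565 in MPS and 155 and 146 in PPS. The 4 populations did not overlap with one another at that time. The step from DE(a) to APS was 1.00 ± 0.18 on the log2 scale (adjusted p = 0.0047), the only collagen call between these 2 populations, where 0.609% of all genes were called higher and 0.123% lower. It was lost without DE(a)-24h replicate 1 or 2 or APS-24h replicate 2 (adjusted p up to 0.1), and in a fit of only the compared libraries (0.14). The fall from MPS to PPS was larger, by 2.21 ± 0.19 (adjusted p = 1.9e-07), and held with each library left out.

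After the second day, COL5A1 was at 809 and 834 CPM in DE(a)-LM, 927 and 968 in APS-LM, 838 and 637 in MPS-LM and 275 and 222 in PPS-LM. In DE(b) medium the order was turned, with 171 and 255 CPM after DE(a) and 628 and 544 CPM after PPS. PPS against DE(a) thus gave a log2 fold change of -1.63 ± 0.18 in LM (adjusted p = 1.5e-06) and of 1.5 ± 0.18 in DE(b) (adjusted p = 5.0e-06). The dependence of the day 1 effect on the medium was tested itself as an interaction, at an adjusted p of 4.1e-07 for COL5A1, the lowest of all collagen genes.

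COL5A2 (ENSG00000204262, chr2:189031898-189225312) had the highest CPM of any collagen gene, in DE(b) medium. It was at 20.6 and 16.7 CPM in the control and 25.9 to 144 CPM at 24 h. In DE(b) medium it was at 530 and 600 CPM after DE(a), 821 and 792 after APS, 2210 and 2230 after MPS and 1622 and 1564 after PPS. These 4 conditions did not overlap. Averaged over DE(b) medium, COL5A2 was 5.96 ± 0.35 log2 units above the control (adjusted p = 9.4e-12), the largest rise of that comparison, and LM against DE(b) medium gave its largest fall, -2.80 ± 0.16 (adjusted p = 1.7e-12). COL5A2 also rose from DE(a)-PM (128 and 269 CPM) to PPS-PM (959 and 1024 CPM), by 2.34 ± 0.31 (adjusted p = 4.0e-05, and 0.063 in a fit of only the compared libraries). Against the control it was 4.44 ± 0.32 higher after PM medium (adjusted p = 2.3e-10). COL5A3, the third type V chain, was at 1.76 and 2.55 CPM in the control, 3.17 to 25.1 CPM at 24 h, 7.53 to 20.4 CPM in DE(b), 5.55 to 25.5 CPM in PM and 1.80 to 4.80 CPM in LM medium. No LM library reached the lowest PM or DE(b) library, and the fall from PM to LM was 2.53 ± 0.14 (adjusted p = 1.9e-12).

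COL3A1 (ENSG00000168542, chr2:188974373-189012746), the chain of type III collagen of soft tissues, lies 19151 bp from COL5A2 and had no count in either control library, which allows up to 0.135 and 0.160 CPM. It also had none in the DE(a)-DE(b) libraries, and at 24 h it reached 3.41 CPM at most. In PM medium it rose along the day 1 populations, with 4.05 and 10.8 CPM after DE(a), 20.9 and 30.1 after APS, 75.5 and 110 after MPS and 272 and 257 after PPS. In LM medium it was at 1.47 and 6.25, 39.1 and 70.7, 62.0 and 36.4, and 76.2 and 21.7 CPM in the same order, where the last 3 populations overlapped. Set against a floor of 3 counts per library, the PM mean of 97.6 CPM was at least 661-fold and the LM mean of 39.2 CPM at least 266-fold above the control, and both differences were called (adjusted p = 2.5e-07 and 5.9e-07). PPS against DE(a) gave 5.18 ± 0.70 on the log2 scale in PM (adjusted p = 7.0e-05) and 3.69 ± 0.67 in LM (adjusted p = 0.00057). In DE(b) medium PPS was at 18.6 and 7.80 CPM, at least 81.9-fold above the floor of the DE(a) libraries (adjusted p = 5.2e-05). COL3A1 was lower in DE(b) than in PM medium by 6.93 ± 0.51 (adjusted p = 7.3e-10), the largest fall of that comparison, and higher in LM than in DE(b) medium by 6.21 ± 0.53 (adjusted p = 6.3e-09). Its low level at 24 h was called higher than the control, at least 7.73-fold (adjusted p = 0.041), but leaving out any 1 of 8 libraries, both controls among them, removed the call (adjusted p up to 0.19), as did the replicate number as a block (adjusted p = 0.0617).

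**Figure D5:**
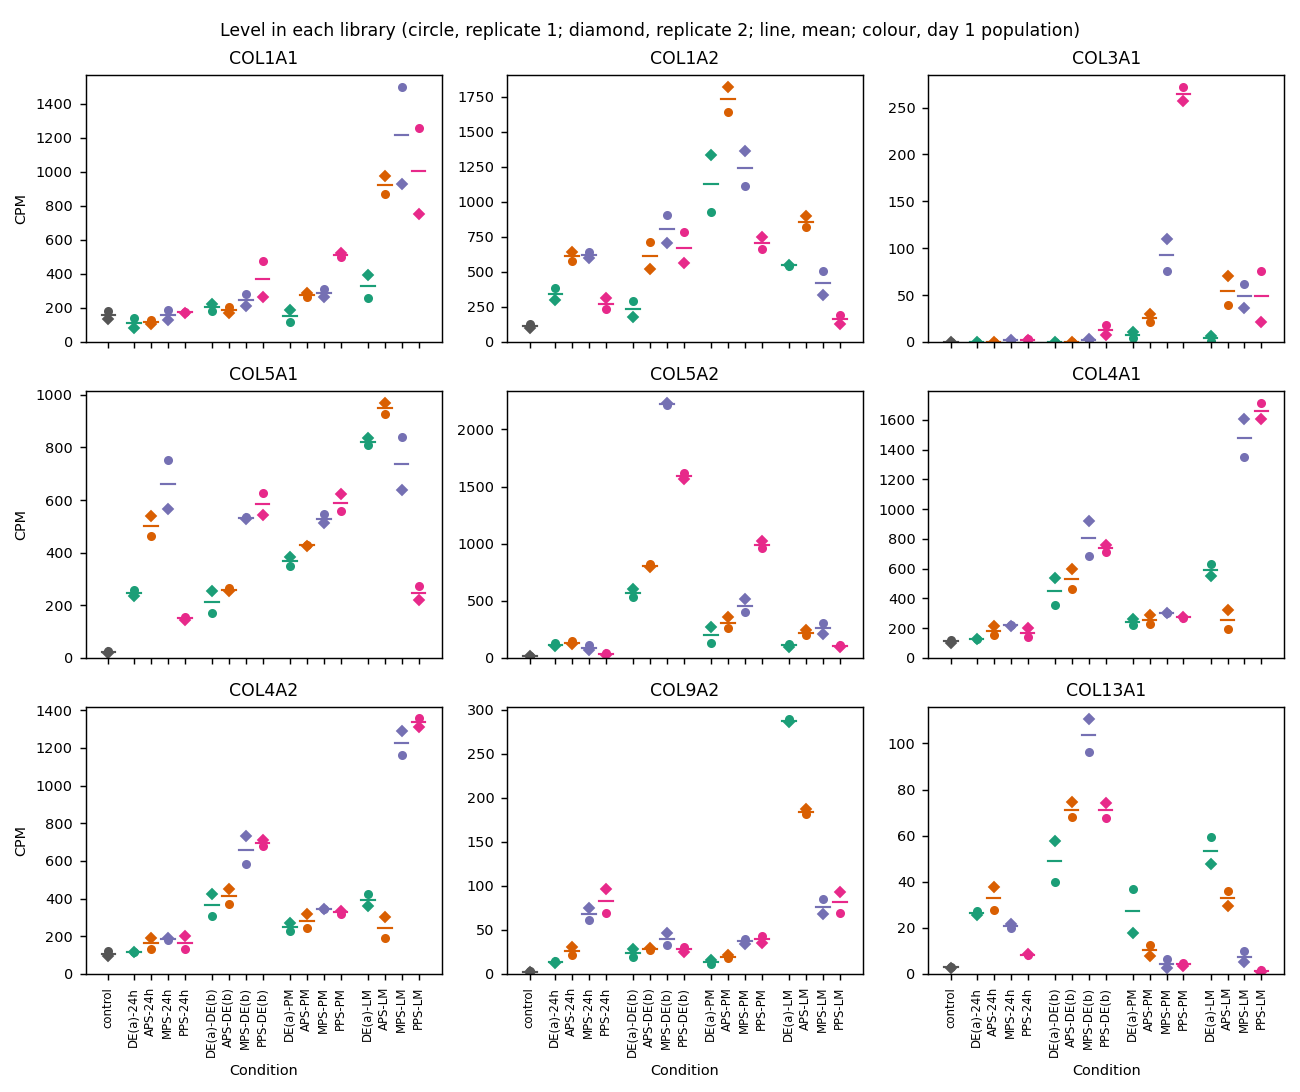
CPM (vertical axis) of 9 collagen genes in each library, by condition (horizontal axis), with the mean of 2 replicates as a line and the day 1 population as colour. COL1A1 is highest in APS-LM, MPS-LM and PPS-LM, and COL1A2 in DE(a)-PM, APS-PM and MPS-PM. COL3A1 peaks in PPS-PM, COL5A2 in MPS-DE(b), COL4A1 and COL4A2 in MPS-LM and PPS-LM, COL9A2 in DE(a)-LM and COL13A1 in MPS-DE(b).

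The cartilage-type fibrillar genes parted between the media. COL2A1, whose product is the main collagen of cartilage and notochord sheath, was at 23.9 and 17.7 CPM in the control, 21.7 to 55.7 CPM at 24 h, 95.7 to 246 CPM in PM medium and 9.40 to 74.5 CPM in LM medium. Its highest values were 502 and 302 CPM in PPS-DE(b), where MPS-DE(b) had 31.7 and 67.1 CPM. COL2A1 fell from PM to LM medium by 2.02 ± 0.18 on the log2 scale (adjusted p = 2.8e-09). COL11A1, a partner chain in cartilage fibrils, moved the other way. It was at 17.6 and 21.8 CPM in the control, 35.2 to 75.1 CPM in PM medium and 24.5 to 58.2 CPM in DE(b) medium, and in LM medium it was at 177 and 197 CPM after DE(a), 362 and 370 after APS, 471 and 516 after MPS and 446 and 565 after PPS. The LM libraries lay above all others, with a rise over PM of 2.66 ± 0.11 (adjusted p = 8.2e-15) and over DE(b) of 3.21 ± 0.11 (adjusted p = 7.3e-16). COL27A1, another fibrillar gene of cartilage, had control levels of 51.9 and 43.7 CPM and a highest level of 256 and 345 CPM in MPS-DE(b). The remaining fibrillar genes were low, COL24A1 at no more than 2.22 CPM and COL11A2, through its annotated identifier, at 5.93 and 10.6 CPM in DE(a)-LM and at most 5.21 CPM elsewhere. That identifier of COL11A2 was called higher in LM than in PM medium (4.63 ± 1.1, adjusted p = 0.0018) and than in DE(b) medium (3.72 ± 1.09, adjusted p = 0.0096), with overlapping libraries.

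Type IV collagen is the network of the basement membrane, and its 6 genes lie in 3 head-to-head pairs. The start sites of COL4A1 (ENSG00000187498, chr13:110148963-110307157, minus strand) and COL4A2 (ENSG00000134871, chr13:110305812-110513209, plus strand) are 127 bp apart in RefSeq on GRCh38.p14, and in GENCODE v44 the 2 genes overlap by 1346 bp, so that reads from the overlap cannot be told apart where strand was not used in counting, a setting not given in the sources used here. The sequence between the start sites is shown because the 2 genes had nearly the same pattern over all conditions. It is chr13:110307158-110307283 on the plus strand, read towards COL4A2, with CCAAT and GGGCGG in capitals:
COL4A1 and COL4A2: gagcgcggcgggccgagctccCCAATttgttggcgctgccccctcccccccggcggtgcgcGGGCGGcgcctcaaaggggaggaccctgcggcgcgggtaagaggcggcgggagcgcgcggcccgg
These 126 bases were 80.2% G or C and held no TATAA on either strand. COL4A5 and COL4A6 face each other on the X chromosome with start sites 380 bp apart. This distance uses the COL4A6 start site nearest to COL4A5, and RefSeq also has a COL4A6 promoter window farther away, at chrX:108438373-108438672. The 250 bases before the COL4A5 start, chrX:108439588-108439837 on the plus strand, are shown for comparison, with CCAAT and its reverse complement ATTGG in capitals:
COL4A5 and COL4A6: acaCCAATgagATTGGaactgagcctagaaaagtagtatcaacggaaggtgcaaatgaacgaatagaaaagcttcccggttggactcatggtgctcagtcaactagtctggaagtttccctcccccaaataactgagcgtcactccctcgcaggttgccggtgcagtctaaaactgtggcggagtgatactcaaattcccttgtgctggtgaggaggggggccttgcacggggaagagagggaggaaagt
This stretch was 51.2% G or C and held neither GGGCGG nor TATAA on either strand. Promoter windows of 300 bp in RefSeq were found for 32 of the 44 symbols, in 44 windows of which 24 held GGGCGG, 14 CCAAT and 9 TATAA on either strand. Among all windows of the table, the shares were 45.0%, 34.6% and 20.4%. A match of these letters is a description and not evidence of binding.

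COL4A1 was at 124 and 104 CPM in the control and 128 to 223 CPM at 24 h. In LM medium it was at 634 and 549 CPM after DE(a), 197 and 319 after APS, 1350 and 1605 after MPS and 1717 and 1605 after PPS, so that APS-LM lay below and MPS-LM and PPS-LM above all other LM libraries. COL4A2 had 423 and 363, 189 and 302, 1163 and 1291, and 1356 and 1313 CPM in the same order. The difference among the 4 populations in LM medium was called for both (adjusted p = 1.2e-07 and 8.7e-08), and PPS against DE(a) gave 1.59 ± 0.24 for COL4A1 (adjusted p = 6.6e-05) and 1.86 ± 0.24 for COL4A2 (adjusted p = 8.3e-06). Beside this, the summed lateral mesoderm markers were 431 and 915 CPM in DE(a)-LM, 961 and 1724 in APS-LM, 1993 and 2373 in MPS-LM and 2175 and 2014 in PPS-LM. The summed amnion markers, with ISL1 among them, were 226 and 288, 90.2 and 104, 77.9 and 126, and 301 and 407 CPM. The part of either cell population in the COL4A1 and COL4A2 levels was not tested. In DE(b) medium COL4A1 was at 358 to 922 CPM and in PM medium at 225 to 304 CPM, without overlap, a difference of 1.25 ± 0.12 (adjusted p = 1.5e-08).

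COL4A5 and COL4A6 encode chains of a network found in kidney and smooth muscle. COL4A5 was at 41.4 and 42.4 CPM in the control, 37.4 to 162 CPM at 24 h, 119 to 248 CPM in DE(b), 76.5 to 229 CPM in PM and 115 to 231 CPM in LM medium. COL4A6 was at 24.4 and 26.3 CPM in the control, 16.04 to 92.9 CPM at 24 h, 78.3 to 223 CPM in DE(b), 30.3 to 99.3 CPM in PM and 43.6 to 151 CPM in LM medium. Among the 24 h populations both were highest in PPS, at 141 and 162 CPM for COL4A5 and 57.2 and 92.9 CPM for COL4A6, and the 4 populations of 24 h differed in both (adjusted p = 0.0014 and 0.0011). The third pair, COL4A3 and COL4A4, mutated in Alport nephropathy, was hardly detected. COL4A4 was at 2.58 and 3.35 CPM in the control and reached 6.20 and 10.6 CPM in DE(a)-DE(b), where COL4A3 also had its highest values of 1.63 and 2.33 CPM. Both were lower in PPS-DE(b), COL4A4 by 3.88 ± 0.47 (adjusted p = 4.0e-06) and COL4A3 from these values to no count, which was at least 12.1-fold lower than DE(a)-DE(b) (adjusted p = 0.0056, lost without PPS-DE(b) replicate 1, adjusted p = 0.063). COL4A3 gave the largest fitted falls against the control after PM and LM medium, from 0.316 and 0.904 CPM to means of 0.0192 and 0.101 CPM (adjusted p = 0.00065 and 0.00089), of which the first was at least 4.03-fold lower than the control. It also gave the largest at 24 h (adjusted p = 0.0058), a call lost without control replicate 2 (adjusted p = 0.12) and with DESeq2 (adjusted p = 0.058).

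Type VI collagen bridges cells and matrix, and COL6A1 held the largest share of the summed collagen CPM at 24 h. It also held the largest share in DE(a)-DE(b) (22.0%), APS-DE(b) (18.2%) and PPS-PM (15.7%). COL6A1 (ENSG00000142156, chr21:45981770-46005050) was at 195 and 181 CPM in the control and at 875 and 862 CPM in DE(a), 782 and 1206 in APS, 875 and 1176 in MPS and 1171 and 1961 in PPS at 24 h, a rise of 2.60 ± 0.22 over the control (adjusted p = 4.5e-09). COL6A1 was at 825 to 1340 CPM in DE(b) medium and at 553 to 1193 CPM in LM medium. After PM medium it had fallen back to 334 to 550 CPM except in PPS-PM, which held 1021 and 1006 CPM. The 4 populations in PM differed (adjusted p = 0.00044). COL6A2, 93061 bp further along the same strand, was at 72.1 and 61.1 CPM in the control and 145 to 312 CPM at 24 h, and it was highest in PPS-LM, at 542 and 446 CPM. COL6A3 was low at 2.73 to 12.4 CPM at 24 h and rose in APS-PM (47.9 and 37.7 CPM), MPS-PM (54.8 and 30.0) and MPS-LM (79.5 and 33.4). Against the control it was higher by 2.27 ± 0.48 in PM (adjusted p = 0.00048) and by 1.78 ± 0.46 in LM medium (adjusted p = 0.0030). COL6A6 was at 0.226 and 0.106 CPM in the control and reached 25.9 and 40.3 CPM in PPS-LM. In LM against PM medium it rose by 4.07 ± 0.23 (adjusted p = 1.8e-12) without overlap. COL6A5 stayed at or under 5.86 CPM, with its highest values of 5.86 and 2.24 CPM in PPS-DE(b), where it was at least 25.2-fold above the floor of DE(a)-DE(b) (adjusted p = 0.00080). At 24 h it was called higher than the control, at least 4.16-fold (adjusted p = 0.0066), a call lost without control replicate 1 or 2 (adjusted p up to 0.069).

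The FACIT genes held both the clearest losses and some of the largest gains. COL14A1, whose product coats fibrils, was at 53.4 and 58.0 CPM in the control, 11.0 to 17.7 CPM at 24 h, 1.87 to 4.34 CPM in DE(b), 4.16 to 8.45 CPM in PM and 2.47 to 6.18 CPM in LM medium. Its falls of 1.89 ± 0.18 at 24 h, 4.01 ± 0.18 after DE(b), 3.32 ± 0.18 after PM and 3.79 ± 0.18 after LM medium were called without overlap (highest adjusted p = 3.4e-08). COL9A1 fell from 27.9 and 19.1 CPM to 2.46 to 6.44 CPM at 24 h, by 2.49 ± 0.24 (adjusted p = 2.9e-08). Type IX collagen is a trimer of COL9A1, COL9A2 and COL9A3 chains on cartilage fibrils, and the other 2 chains did not follow COL9A1. COL9A2 rose from 3.12 and 1.75 CPM in the control to 289 and 286 CPM in DE(a)-LM, 182 and 187 in APS-LM, 85.1 and 67.9 in MPS-LM and 69.0 and 93.4 in PPS-LM. At 24 h its order was the reverse, from 15.2 and 12.6 CPM in DE(a) to 68.9 and 96.3 CPM in PPS. The fall from DE(a) to PPS in LM was -1.72 ± 0.25 (adjusted p = 3.5e-05), and PPS against DE(a) in PM was 1.59 ± 0.26 (adjusted p = 0.00031, and 0.056 in a fit of only the compared libraries). COL9A3 stayed at 43.8 to 244 CPM in all libraries and was called higher than the control after LM medium (1.18 ± 0.22, adjusted p = 0.00013), at 24 h (0.98 ± 0.22, adjusted p = 0.0012) and after DE(b) medium (0.67 ± 0.21, adjusted p = 0.014). The calls at 24 h and after DE(b) were lost without control replicate 2 (adjusted p = 0.054 and 0.19).

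Of the remaining FACIT genes, COL16A1 was at 21.2 and 19.7 CPM in the control, 9.04 to 16.7 CPM in PM and 18.7 to 46.3 CPM in LM medium, a rise of 1.33 ± 0.12 from PM to LM (adjusted p = 5.3e-09). COL19A1 was at or under 0.247 CPM in the control and at 24 h and reached 22.6 and 28.0 CPM in PPS-LM. It was the largest rise of LM over PM medium at 4.68 ± 0.51 (adjusted p = 1.9e-07), and after LM medium it was 5.90 ± 1.02 above the control (adjusted p = 7.4e-05). The LM libraries ran from 0.215 to 28.0 CPM and overlapped with PM medium (0 to 1.97 CPM) and the control (0 and 0.226 CPM). COL22A1 was at 8.15 and 16.7 CPM in DE(a)-DE(b) and at most 7.55 CPM in all other conditions. COL12A1 fell from 7.32 and 8.998 CPM in the control to 0.644 to 3.50 CPM in LM medium, by 3.0 ± 0.43 (adjusted p = 5.2e-06), and COL21A1 was highest in PPS-PM, at 6.76 and 5.62 CPM, and lower in DE(b) than in PM medium by 2.36 ± 0.27 (adjusted p = 2.4e-07).

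The transmembrane collagens, which stay anchored in the cell membrane, differed in the medium of their highest level: DE(b) for COL13A1 and COL23A1, PM for COL17A1 and COL25A1. COL13A1 (ENSG00000197467, chr10:69801880-69964275) was at 3.12 and 2.71 CPM in the control and 8.17 to 37.9 CPM at 24 h. In DE(b) medium it was at 40.1 and 57.7 CPM after DE(a), 68.0 and 74.7 after APS, 96.4 and 111 after MPS and 67.8 and 74.3 after PPS. DE(b) medium was 4.64 ± 0.37 above the control (adjusted p = 1.2e-09) and 3.12 ± 0.18 above PM medium (adjusted p = 3.6e-12), and LM was below DE(b) medium, at -2.60 ± 0.18 (adjusted p = 7.6e-11). In LM medium it declined along the day 1 populations, from 59.2 and 47.9 CPM after DE(a) over 36.1 and 29.4 after APS and 9.79 and 5.12 after MPS to 1.94 and 0.984 after PPS. Endoderm markers fell in LM medium from DE(a) to PPS as well, with means of 82.2, 2.93, 0 and 0.0273 CPM for SOX17 and 31.7, 1.38, 0.0949 and 0 CPM for FOXA2 in that order of populations, and their part in the COL13A1 levels was not tested. PPS against DE(a) in LM was the largest fall of that comparison at -5.09 ± 0.42 (adjusted p = 2.7e-08), and in PM it was -2.68 ± 0.36 (adjusted p = 5.4e-05, and 0.058 in a fit of only the compared libraries). In DE(b) medium PPS-DE(b) was not below DE(a)-DE(b), and the interaction of day 1 and day 2 treatment had an adjusted p of 2.2e-06.

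COL23A1 was at 6.65 and 6.28 CPM in the control and at 37.5 to 60.7 CPM in DE(b) medium after DE(a), APS and MPS but at 6.87 and 6.29 CPM after PPS. It showed the largest rise of DE(b) over PM medium, 3.24 ± 0.29 (adjusted p = 4.0e-09). In LM medium it went from 42.2 and 29.4 CPM after DE(a) to 3.78 and 3.06 after PPS, a log2 fold change of -3.28 ± 0.57 (adjusted p = 0.00028). COL25A1, a component of amyloid plaques, was higher in PM medium (12.8 to 32.4 CPM) than in DE(b) medium (2.38 to 5.32 CPM except 18.9 and 16.3 CPM in PPS-DE(b)). COL17A1, a hemidesmosome protein of epithelia, was at 15.95 and 10.8 CPM in PPS-PM and at most 6.92 CPM elsewhere, 3.19 ± 0.45 above DE(a)-PM (adjusted p = 7.3e-05).

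Of the multiplexins, COL18A1, a basement membrane proteoglycan that yields endostatin, was abundant throughout, from 287 CPM in a control library to 885 CPM in a DE(a)-PM library. It was called higher than the control only after PM medium (0.99 ± 0.25, adjusted p = 0.0026), a call lost without control replicate 2 (adjusted p = 0.08). COL15A1 did not exceed 1.88 CPM, and it gave the largest fall from PM to LM medium, -3.06 ± 0.62 (adjusted p = 0.00032). COL7A1, the anchoring fibril of skin, was at 25.1 and 17.6 CPM in the control and 47.1 to 94.9 CPM in PM medium (1.64 ± 0.40, adjusted p = 0.0018). It was also called higher after DE(b) medium, where the libraries ran from 24.3 to 107 CPM and overlapped with the control. COL26A1 was at 88.9 and 62.0 CPM in the control, 25.2 to 49.6 CPM in PM medium and 74.5 to 143 CPM in LM medium, and rose from PM to LM by 1.66 ± 0.16 (adjusted p = 1.5e-08). The short chain genes COL8A1, COL8A2 and COL10A1 stayed at or under 4.00 CPM. COL8A2 fell from 2.45 and 2.98 CPM in the control to at most 0.591 CPM in DE(b) and 0.752 CPM in PM medium (-3.71 ± 0.60 and -3.74 ± 0.61, adjusted p = 2.8e-05 for both). In PM medium COL8A2 was at least 5.44-fold lower after PPS than after DE(a) (adjusted p = 0.031, lost without either DE(a)-PM library or PPS-PM replicate 2, 0.24 at most). COL8A1 had 3.89 and 3.39 CPM in PPS-LM, at least 21.8-fold above the floor in DE(a)-LM (adjusted p = 0.020, lost without DE(a)-LM replicate 1 or 2 or PPS-LM replicate 1, 0.16 at most).

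The choice of day 2 medium divided the collagen genes more evenly than the step from the control. In DE(b) against PM medium 15 were called higher and 10 lower, beside 21.4% and 21.6% of all genes. Between LM and PM medium 20 were higher and 12 lower, beside 21% of all genes in each direction, and between LM and DE(b) medium 17 were higher and 14 lower, beside 19.8% in each. These 3 comparisons share libraries in pairs. Median log2 fold changes of the members were 0.23, 0.46 and 0.12, and those of all genes were between -0.01 and 0.02. Among the 6 basement membrane genes, 4 were called higher in LM than in PM medium and 0 lower. Among the 5 beaded filament genes the counts were also 4 and 0.

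Fewer collagen genes were called between the populations at 24 h, and fewer of all genes were called as well. These steps have 2 libraries a side and the comparisons of media have 8, so their counts are not set against each other. MPS against APS gave 3 higher and 1 lower, beside 1.89% and 1.03% of all genes. COL6A6 (2.96 against 0.654 CPM, 2.19 ± 0.42, adjusted p = 0.0037), COL9A2 (1.39 ± 0.25, adjusted p = 0.0019) and COL11A1 (1.03 ± 0.21, adjusted p = 0.0060) were higher and COL5A3 was lower (-1.44 ± 0.26, adjusted p = 0.0022). The count fell to 2 without APS-24h replicate 1 or without APS-24h replicate 2, and each of the 4 calls was lost without at least 1 library (COL6A6 without APS-24h replicate 2, COL9A2 without APS-24h replicate 1, COL5A3 without MPS-24h replicate 2, and COL11A1 without either APS-24h library or MPS-24h replicate 1). COL6A6, COL11A1 and COL5A3 lost the call when only the compared libraries were fitted (adjusted p = 0.0997, 0.119 and 0.0948). PPS against MPS, which differ by activin, gave 0 higher and 5 lower, beside 2.79% and 3.35% of all genes. Apart from COL5A1 these were COL5A2 (-1.45 ± 0.30, adjusted p = 0.0051), COL5A3, COL1A2 (-1.26 ± 0.26, adjusted p = 0.0042) and COL13A1, so that 4 of the 5 were fibrillar genes and all 3 type V chains were among them. Without MPS-24h replicate 1 only 1 of the 5 remained called and without PPS-24h replicate 2 only 2 genes were called, while COL5A1 held in every case. COL5A2 and COL5A3 lost the call when only the compared libraries were fitted (adjusted p = 0.11 and 0.165). Over all 4 populations of 24 h, 13 collagen genes differed, beside 18.8% of all genes.

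After a shared day 2 medium, the 4 day 1 populations differed in 18 collagen genes after DE(b) medium, 15 after PM and 26 after LM, where 16.6%, 7.47% and 19.6% of all genes differed. PPS against DE(a) gave 12 higher and 8 lower in DE(b) (8.63% and 8.73% of all genes), 13 and 3 in PM (3.67% and 4.95%) and 11 and 7 in LM (6.52% and 7.81%). Markers of other cell types were called in the same comparisons, and their part in these counts was not tested. After DE(b) medium all 4 paraxial mesoderm, 3 of 4 lateral mesoderm and 3 of 4 amnion genes were higher in PPS, and FOXA2 and CXCR4 were lower. In PM medium 2 of 4 amnion genes were higher and SOX17 and FOXA2 lower, and in LM medium 2 of 4 lateral mesoderm genes and 1 of 4 amnion genes were higher and FOXA2, SOX17 and CER1 lower. In PM medium the count of 16 fell to 8 without DE(a)-PM replicate 1, to 9 without PPS-PM replicate 2 and to 2 in a fit of only the compared libraries, where COL3A1 and COL17A1 were called. The count of 15 in PM fell to 9 without either PPS-PM replicate. The effect of day 1 depended on the medium in 24 of 44 collagen genes, where 13.1% of all genes had a called interaction. All 5 beaded filament genes and all 4 transmembrane genes were among the 24.

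The genes whose pattern over the 17 conditions was most like that of COL4A1 and COL1A1 were sought among the 14647 genes averaging 1 CPM or more, by the Pearson correlation of log2(CPM + 1). For COL4A1 the first was COL4A2 (0.98), followed by TPST1 (0.91), RANBP9 (0.90), CALR (0.88) and DCUN1D3 (0.88). For COL1A1 they were ZHX1 (0.96), MXRA8 (0.95), THBS3 (0.93), CLSTN2 (0.93) and DENND4C (0.93), and COL1A2 was not among them. The 17 points share libraries with the genes compared, and no test was made.

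Procollagen is folded and modified before secretion. Of 22 genes that hydroxylate, glycosylate or chaperone the chains in the endoplasmic reticulum or control this step, 21 were tested, and against the control 9 were called higher at 24 h, 17 after DE(b), 16 after PM and 17 after LM medium, with 0 lower in each. Of all genes, 16.9%, 22.4%, 22.3% and 24.3% were called higher and 15.6%, 22.9%, 22.7% and 24.6% lower in these 4 comparisons. P3H2, a prolyl 3-hydroxylase of basement membrane collagens, had means of 38.0 CPM in the control, 372 at 24 h, 970 with DE(b), 143 with PM and 206 with LM medium, a rise of 4.70 ± 0.28 in DE(b) (adjusted p = 1.2e-11). PLOD2, a lysyl hydroxylase that marks chains for crosslinking, had means of 22.2, 87.6, 136, 69.2 and 179 CPM in the same order, and its rise in LM was 2.97 ± 0.16 (adjusted p = 2.7e-12). CREB3L1, a transcription factor for procollagen secretion, was at 8.17 CPM in the control and 76.9 CPM in LM medium (3.23 ± 0.34, adjusted p = 5.1e-08). Between LM and PM medium 11 of the 21 were higher and 3 lower, beside 21% of all genes in each direction.

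The 13 genes of propeptide removal and crosslinking were called in both directions: 4 higher and 4 lower at 24 h, 5 and 6 after DE(b), 7 and 5 after PM and 6 and 4 after LM medium, beside the 16.9% to 24.3% of all genes higher and 15.6% to 24.6% lower. BMP1, the procollagen C-proteinase, was at a mean of 4.5 CPM in the control and 54.8 CPM in PM medium (3.51 ± 0.22, adjusted p = 2.2e-11). Its relative TLL2 was at 43.2 CPM in PM, 0.178 CPM in LM and 0.266 CPM in DE(b) medium, 8.06 ± 0.55 lower in LM than in PM (adjusted p = 5.6e-11). ADAMTS2 and ADAMTS3, which remove N-propeptides, were both higher in LM than in PM medium, by 2.13 ± 0.16 (adjusted p = 1.8e-10) and 1.69 ± 0.10 (adjusted p = 7.4e-12).

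Among the 8 collagen receptors 7 were tested, with 2, 4, 3 and 4 called higher and 0, 1, 2 and 1 lower at 24 h and after DE(b), PM and LM medium, where 16.9%, 22.4%, 22.3% and 24.3% of all genes were higher and 15.6% to 24.6% lower. DDR2, a receptor kinase for fibrillar collagen, rose from a mean of 2.29 CPM in the control to 89.2 CPM in PM medium (4.93 ± 0.53, adjusted p = 1.2e-07), and ITGA1, an integrin for type IV collagen, was higher in LM than in DE(b) medium (63.1 against 13.2 CPM, 2.55 ± 0.15, adjusted p = 5.8e-12). Of the 11 genes of collagen breakdown and its inhibitors 9 were tested, with 3, 6, 4 and 6 higher and 1, 1, 2 and 2 lower, beside the same shares of all genes. MMP14, a membrane collagenase, rose from 56.3 CPM to means of 269, 516, 353 and 451 CPM, and its inhibitor relative TIMP4 fell from 19.6 CPM to 1.57, 1.51, 0.468 and 0.789 CPM, all called. MMP9, a gelatinase, was at a mean of 19.8 CPM in DE(b) medium and 0.406 CPM in PM medium (5.59 ± 0.38, adjusted p = 5.6e-11).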

How the data were processed

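RNA sequencing of 34 libraries (17 conditions, 2 replicates each, called biological by the study) was used. Per the labels and the study's methods, the authors quantified reads with Salmon 1.10.2 against human GRCh38 transcripts, correcting for sequence and GC bias, and summed transcripts to genes in R 4.4.2. The deposited values are estimated counts per gene, not normalized. The strand setting is not given in the sources used here. Library totals had a median of 19341117 counts.

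Estimated counts were rounded and fitted with edgeR 4.0.16 (limma 3.58.1) in R 4.3.3, with TMM normalization, filterByExpr by condition (17895 of 37951 identifiers kept, 48 of 49 collagen identifiers), 1 mean per condition over all 34 libraries, a common dispersion of 0.0611 and 17 residual degrees of freedom. Averages over conditions, pairs of conditions and F tests were taken as contrasts, with Benjamini-Hochberg adjustment over all genes tested. A symbol with several identifiers was counted once. CPM was the unrounded count divided by the library total. A count of 0 allows up to 3 counts, and "at least" folds use 3 counts per library as floor; both cover counting error only. Coordinates and exon lengths are from GENCODE v44, and promoter sequences are from RefSeq on GRCh38.p14. Python 3.11.15 was used for tables and figures.

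Collagen genes with a condition mean of at least 10 CPM were named with values, and in each comparison the 2 largest called rises and falls were given in full. The members and gene lists were chosen with earlier results of these data known. Tested on simulated counts for all 17895 genes, the fit called 33 of 50 genes changed by 1 log2 unit and 45 of 50 changed by 2 in LM against PM medium, and 16 and 31 of 50 in PPS against MPS at 24 h. Alternatives were RLE normalization, no filter on low counts, the replicate number as a block, only the compared libraries, DESeq2 1.42.0 and each library left out.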

Additional observations from a re-analysis of the deposited data

Results flagged for a closer look

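The effect of the day 1 treatment differed between the 3 day 2 media in 24 collagen genes, by the interaction contrast over 24 libraries in the edgeR fit of all 34, with Benjamini-Hochberg adjustment. Of the fibrillar genes, the adjusted p was 4.13e-07 for COL5A1, 4.27e-05 for COL1A2, 0.00047 for COL2A1, 0.000722 for COL5A2, 0.00689 for COL3A1, 0.00942 for COL5A3 and 0.0185 for COL11A1. Of the basement membrane genes, it was 0.000128 for COL4A1, 0.000382 for COL4A2, 0.000575 for COL4A4 and 0.0124 for COL4A6. The beaded filament genes had 5.89e-05 for COL6A6, 0.0018 for COL6A2, 0.00401 for COL6A3, 0.00788 for COL6A1 and 0.0224 for COL6A5. The transmembrane genes had 2.16e-06 for COL13A1, 8.72e-06 for COL25A1, 0.00151 for COL17A1 and 0.0273 for COL23A1, and the FACIT genes 4.31e-06 for COL9A2, 0.00725 for COL22A1, 0.00935 for COL21A1 and 0.0325 for COL19A1.

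Of these, COL6A1 was lost without PPS-DE(b) replicate 1 or 2 (adjusted p up to 0.084), COL21A1 without DE(a)-DE(b) replicate 2 (0.069) and COL4A6 without PPS-DE(b) replicate 1 (0.058). COL11A1, COL6A5, COL23A1 and COL19A1 were each lost without any 1 of 3, 3, 6 and 8 libraries (adjusted p up to 0.085, 0.1, 0.07 and 0.12). COL6A5 and COL23A1 were also not called in a fit of only these 24 libraries.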

How the results depend on the processing

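Of 258 recomputed counts of called collagen genes, 235 lay within 1.5 times the reported count. Without the filter on low counts, the counts were 3 for APS against DE(a), 11 for MPS against APS and 12 for PPS against MPS at 24 h, and 25 and 28 for the 4 populations within 24 h and DE(b). Fitting only the compared libraries gave 0 for APS against DE(a), 2 for MPS against APS, 2 for PPS against DE(a) in PM medium and 7 for the 4 populations within PM. DESeq2 gave 2 for APS against DE(a) and 8 for PPS against MPS. The cause was not tested. With 1 library left out, counts ran from 15 to 26 at 24 h against the control, 24 to 30 after DE(b), 24 to 34 after PM and 26 to 32 after LM medium. They ran from 0 to 1 for APS against DE(a), 2 to 3 for MPS against APS, 1 to 7 for PPS against MPS, 24 to 27 for DE(b) against PM, 29 to 34 for LM against PM and 28 to 32 for LM against DE(b). PPS against DE(a) gave 15 to 20 in DE(b), 8 to 14 in PM and 13 to 17 in LM, and the 4 populations gave 12 to 15 at 24 h, 14 to 21 in DE(b), 9 to 17 in PM and 24 to 26 in LM, with 20 to 25 for the interaction. Of 652 recomputed values of the 46 fold changes named in full, 34 missed the threshold and 0 changed sign. Whether replicate numbers pair the libraries was not settled: all replicate 2 libraries were deposited in a separate table, and 96 of 136 pairs of conditions, not every one, had a correlation of same-numbered deviations above 0.1 (-0.196 to 0.569, median 0.162). With the replicate number as a block, the counts were 27, 31, 33 and 35 against the control, 1, 5 and 6 between the populations at 24 h, 27, 33 and 32 between media, 22, 16 and 19 for PPS against DE(a), 16, 21, 17 and 31 among the 4 populations and 28 for the interaction, none over 1.5 times the reported one. Scaling CPM by TMM moved the collagen sum by more than 1 SD in 2 of 17 conditions. With 2 libraries a condition and a floor of 3 counts, differences of genes under 1 CPM were not detectable with precision.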
